A study of Mus musculus with 4 samples.

Results

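The genes described here are 10 cell cycle inhibitors and members of the p53 pathway in ageing mouse skeletal muscle: Cdkn1a, Cdkn1b, Cdkn2a, Cdkn2b, Cdkn2c, Cdkn2d, Trp53, Mdm2, Gadd45a and Ccng1. They were chosen by name, and all 10 were found among the 40137 gene units of the count files. RNA sequencing covered thigh muscle of male wild-type C57BL/6J mice, with 3 libraries from mice of 28 months and 1 library from a mouse of 18 months. No treatment or genetic change was given for either age. The study used sequencing to check alternative splicing that exon arrays had measured in the same samples, so the files hold counts per exonic bin, a stretch of exon bounded by any annotated exon edge. The labels do not say whether the 3 libraries of 28 months came from separate animals, so the p-values measure the spread between these libraries, which may be technical. With 1 library at 18 months, its age and its own peculiarities cannot be told apart.

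p53, the product of Trp53, is a transcription factor that is stabilised after DNA damage and other stress and that switches on genes for cell cycle arrest, DNA repair and cell death. Its target Cdkn1a encodes p21, which blocks cyclin-dependent kinases, and its target Mdm2 encodes the ubiquitin ligase that sends p53 to degradation and so closes a feedback loop. The INK4 proteins p16, p15, p18 and p19 bind the kinases that start the cell cycle, and p16 and p21 are widely used markers of cellular senescence. Most nuclei of adult muscle lie in fibres that have left the cell cycle for good, while satellite cells, connective tissue cells and immune cells can still divide.

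DNA upstream of the start sites is shown first, because p53 acts on its targets through an element that can be searched for there. In the RefSeq promoter table (GRCm38.p6), the 250 bases before each start were searched for the p53 response element, a pair of decamers separated by 0 to 13 bases whose core C and G were kept fixed. The motif is its own reverse complement, so both strands were covered. Of 32851 windows, 166 (0.505%) held the element with at most 1 mismatch, and 2 of the 13 windows of the 10 genes were among them. For Mdm2 only the outer promoter was searched, and the promoter inside the gene was not analysed here. Below, capitals mark the match with the fewest mismatches, and among equals the shortest spacer. The upstream start of Cdkn1a, at chr17:29090729-29090978 on the plus strand, held it without a mismatch, as did 21 windows (0.0639%) in all, with 12 bases between the decamers and 73 to 42 bases before the start. Ccng1, at chr11:40755287-40755536 on the minus strand, held it with 1 mismatch and no spacer, 195 to 176 bases before the start. In Cdkn1a, the 10 bases right after the capitals also match the decamer, with 1 mismatch. Together with the last 10 capitals they form a pair with no spacer, which ranked lower because of its mismatch. A match is a description of the letters and not a measured binding site.
Cdkn1a: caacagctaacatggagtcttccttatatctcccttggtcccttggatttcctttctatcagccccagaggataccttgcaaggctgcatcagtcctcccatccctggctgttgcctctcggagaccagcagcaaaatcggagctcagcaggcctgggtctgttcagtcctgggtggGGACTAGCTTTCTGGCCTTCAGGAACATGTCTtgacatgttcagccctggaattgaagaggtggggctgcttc
Ccng1: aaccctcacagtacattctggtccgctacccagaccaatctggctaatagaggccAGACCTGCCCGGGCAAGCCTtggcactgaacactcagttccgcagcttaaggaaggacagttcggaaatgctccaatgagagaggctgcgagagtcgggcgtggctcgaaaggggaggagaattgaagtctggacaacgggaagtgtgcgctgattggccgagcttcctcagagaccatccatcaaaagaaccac

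Before the genes are taken in turn, 4 properties of the libraries bear on them. The libraries held 65780464 to 76163175 counts, and the fast fibre markers summed to 102368 to 209106 CPM (counts scaled to the size of each library), while Krt5, Krt15, Dsg3 and Ivl, defining markers of keratinocytes, were at 0 in all 4. The other 4 keratinocyte markers were near 0 or low: Krt10 had 55 to 109 counts per library, and Krt14, Krt1 and Lor had 5, 3 and 1 count in 1 library each. The labels name muscle as the tissue, but their extraction text describes skin keratinocytes. Replicate 2 of 28 months stood apart from the other 28-month libraries. Its fast fibre sum was 102368 CPM against 205595 and 209106 CPM in those libraries. The 18-month library, at 122159 CPM, was nearer to replicate 2. The fibro-adipogenic progenitor markers of replicate 2 summed to 6366 CPM against 2313 and 3007 CPM in the other 28-month libraries. Replicate 2 was the highest or lowest of the 3 in 85.6% of all genes tested. Any of 3 libraries would be so in many genes, and the shares of replicates 1 and 3 are not given here. The 18-month library carried more counts near 3′ ends, with a median share of 48.0% in the last exonic block against 32.6 to 34.0% at 28 months. Its macrophage markers summed to 183 CPM against 239 to 416 CPM, with 10 of 11 below every 28-month library, and its Schwann cell markers to 349 CPM against 99.9 to 198 CPM, with 9 of 9 above. Its adipocyte markers summed to 3534 CPM against 4238 to 5075 CPM, with 5 of 7 below every 28-month library. In bulk muscle, fewer cells of a type and less RNA per cell cannot be told apart.

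Across the 10 genes, the transcripts of Ccng1, Mdm2, Cdkn2c, Gadd45a, Cdkn1a, Cdkn1b, Trp53 and Cdkn2d were present in every library, Cdkn2b was near 1 CPM, and Cdkn2a was close to absent. None of the 9 genes with enough counts to test changed between the ages at an adjusted p under 0.05 in the edgeR quasi-likelihood test, nor did any have an unadjusted p under 0.05. The background was the same: 0 of 15376 genes (0.0%) passed the adjusted threshold and 753 (4.9%) the unadjusted one; DESeq2 called 31 genes, none of them among the 9. In estimate, 2 of the 9 were higher at 28 months (Cdkn2c and Trp53) and 7 lower, with a median log2 difference (28 minus 18 months) of -0.25 against 0.06 over all genes. The 18-month value lay outside the 28-month range in 4 of the 9 genes (44.4%), above it in Cdkn2d, Mdm2 and Ccng1 and below it in Trp53, against 51.8% of all genes.

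**Figure D1:**
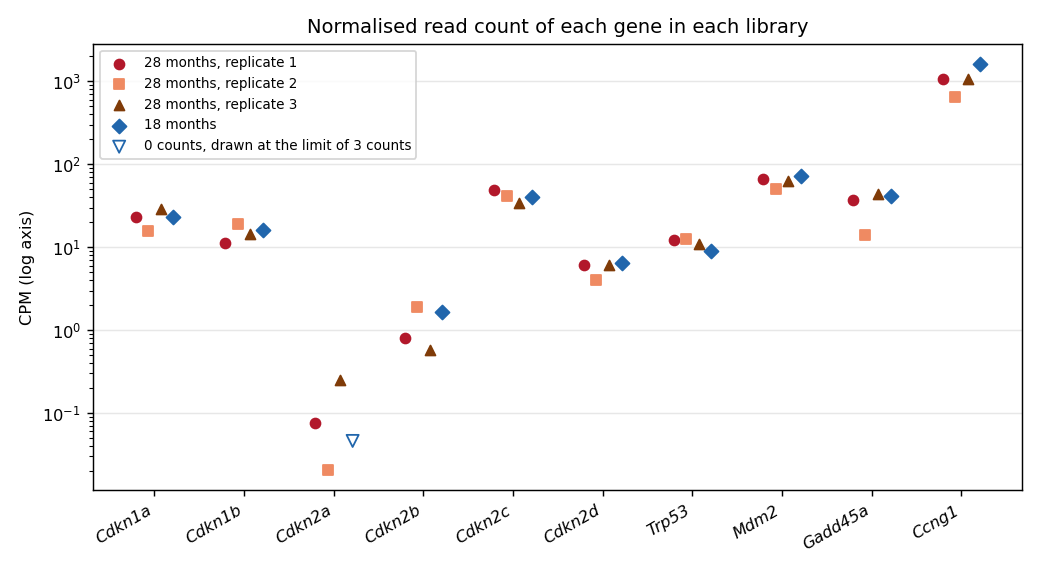
Normalised read count of the 10 genes in each library, as CPM on a log axis, where each symbol is 1 library and the colours separate the 3 libraries of 28 months from the 1 of 18 months. Ccng1 stands highest at 650 to 1609 CPM and Cdkn2a lowest, at 0.0205 to 0.248 CPM in the 28-month libraries and 0 at 18 months.

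The CIP/KIP inhibitors bind a broad range of cyclin-dependent kinase complexes. Cdkn1a (p21, ENSMUSG00000023067, chr17:29090976-29100727, GRCm38) measured 23.1, 15.6 and 28.7 CPM in replicates 1, 2 and 3 of 28 months and 23.0 CPM at 18 months. The younger value lay inside the older range, nearly equal to replicate 1. Its log2 difference was -0.03 ± 0.40 (SE), with a 95% interval of -1.04 to 0.97 and an edgeR adjusted p of 0.988 (28-month mean 22.5 ± 6.60 CPM, SD, n = 3). Replicate 2 was the lowest, and without it the estimate was 0.20.

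Cdkn1b, at chr6:134920401-134925513, encodes p27, an inhibitor that holds resting cells out of the cycle. It measured 11.3, 19.03 and 14.3 CPM in the older libraries and 16.0 CPM at 18 months, again inside the range. Here replicate 2 was the highest of the 3. Cdkn1b had a log2 difference of -0.10 ± 0.36, an interval of -1.03 to 0.83 and an edgeR adjusted p of 0.968; the 28-month mean was 14.9 ± 3.87 CPM.

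Among the INK4 inhibitors, Cdkn2c was the most abundant. It encodes p18, lies at chr4:109660876-109667189, and measured 49.6, 41.3 and 34.6 CPM at 28 months, against 40.2 CPM in the 18-month library. The 18-month library fell between replicates 2 and 3, so the ages overlapped. The log2 difference of Cdkn2c was 0.06 ± 0.31 (interval -0.73 to 0.84, edgeR adjusted p = 0.977), around a 28-month mean of 41.8 ± 7.52 CPM. For Cdkn2d (p19, chr9:21288410-21291407) the values were 6.08, 3.97 and 6.11 CPM against 6.42 CPM. The 18-month value was above all 3 older libraries by less than the spread among them. Its log2 difference was -0.25 ± 0.39 (interval -1.25 to 0.74, edgeR adjusted p = 0.920).

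Cdkn2b, which encodes p15 beside the Cdkn2a locus at chr4:89306299-89311039, measured 0.808, 1.91 and 0.580 CPM in the 3 libraries of 28 months, next to 1.66 CPM at 18 months. These values stood on 54, 186, 35 and 108 counts. Replicate 2 was the highest of the 4 and the 18-month library lay inside the range. The log2 difference of Cdkn2b was -0.59 ± 0.78 with an interval of -2.58 to 1.41 (edgeR adjusted p = 0.911), and it was -1.23 without replicate 2 (adjusted p = 0.141; 0.141 to 1.00 over all alternatives tried). Nearly all of its counts, 95.2 to 100% per library, lay in the bin at its 3′ end, and the bin at its 5′ end held 1, 9, 0 and 0 counts.

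Cdkn2a, at chr4:89274471-89294653, yields p16 and the p53 activator Arf from separate start exons that are joined to the same following exon in different reading frames. It had 5, 2 and 15 counts at 28 months (22 in all) and 0 at 18 months, so it stayed below the filter (10 counts on average) and was not tested. In CPM these were 0.0749 (exact 95% Poisson interval 0.0243 to 0.175), 0.0205 (0.00248 to 0.0741), 0.248 (0.139 to 0.410) and 0. The limit that a count of 0 allows, 3 counts, was 0.0461 CPM at 18 months, so the 28-month mean of 0.115 ± 0.119 CPM was at least 2.49-fold higher than at 18 months when that limit is taken for the younger library. Replicate 2 was itself below the limit and the interval of replicate 1 included it, so the fold is no bound on a difference between the ages. The intervals cover counting error only. They treat counts as independent, although a fragment that crosses bins counts in each, so they may be too narrow. The difference thus rested on replicates 1 and 3, and most of it on the 15 counts of replicate 3.

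The products of Cdkn2a can be told apart only by their start exons, so the joins are shown here, from the GENCODE M21 transcripts, with the end of the start exon in lower case and the beginning of the shared exon in capitals.
Cdkn2a-201 (p16): cgtaccccgattcagGTGATGATGATGGGC
Cdkn2a-202 (Arf): ggaatcctggaccagGTGATGATGATGGGC
The shared exon (chr4:89276645-89276985) held 2, 1 and 7 counts at 28 months. The start exon of p16 (chr4:89281986-89282192) held 0, 0 and 1 count and that of Arf (chr4:89294334-89294653) 1, 0 and 2. Both were at 0 at 18 months, and at this depth the 2 products could not be ranked.

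Trp53, at chr11:69580359-69591873, was the gene with the steadiest level relative to its mean among the older libraries. It measured 12.1, 12.5 and 10.998 CPM in the 28-month libraries against 8.95 CPM in the younger one. The younger library lay below all 3, as it did in 25.4% of all genes tested. The log2 difference of Trp53 was 0.40 ± 0.28, with an interval of -0.30 to 1.11 and an edgeR adjusted p of 0.859; the 28-month mean was 11.9 ± 0.768 CPM. Across the alternatives it stayed positive, from 0.18 to 0.46, and never passed the threshold.

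Mdm2, at chr10:117688875-117710758, had an estimate in the other direction. It measured 66.1, 50.5 and 63.7 CPM in the older libraries against 72.0 CPM in the younger. The younger library was the highest of the 4, as in 26.4% of all genes. Mdm2 had a log2 difference of -0.26 ± 0.29 (interval -0.99 to 0.47, edgeR adjusted p = 0.897) around a 28-month mean of 60.1 ± 8.38 CPM. The counts differed between the ends of the transcript. Over the last exonic block, the abutting bins up to its 3′ end, Mdm2 had 35.1, 25.6 and 34.3 CPM against 51.3 CPM at 18 months. Over all bins upstream of that block it had 31.0, 24.9 and 29.3 CPM against 20.6 CPM. The 28-month libraries were thus all below the younger library in the last block and all above it upstream. A fit on upstream bins alone, which rescales each library to such bins of all placed genes, gave Mdm2 a log2 difference of 0.060, and the same fit on last blocks gave -0.26; neither passed the threshold.

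Gadd45a, a stress-induced gene whose product takes part in growth arrest and DNA repair, lies at chr6:67035096-67037457. It measured 37.3, 14.2 and 44.3 CPM at 28 months, against 41.5 CPM in the 18-month library. Replicate 2 was the lowest by far, and the other 3 libraries lay together. Gadd45a had a log2 difference of -0.38 ± 0.63 (interval -1.98 to 1.22, edgeR adjusted p = 0.929), and of -0.00 without replicate 2. A transcript annotated on the opposite strand of the same locus, E230016M11Rik, held 37, 30, 43 and 18 counts; whether the counting used strand is not given in the sources used here, so reads of the pair may be mixed.

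Ccng1 encodes cyclin G1, a p53 target that is abundant in muscle, and lies at chr11:40748552-40755311. It measured 1069, 650 and 1078 CPM in the 3 libraries of 28 months, next to 1609 CPM at 18 months. All 3 older libraries were below the younger one, and replicate 2 was the lowest. This was the largest estimate among the tested members, a log2 difference of -0.79 ± 0.44 with an interval of -1.91 to 0.33 and an edgeR adjusted p of 0.859 (28-month mean 933 ± 245 CPM). Without replicate 2, Ccng1 passed the threshold with an estimate of -0.56 (log2) and an adjusted p = 0.0453 (0.0453 to 1.00 over all alternatives tried). In that fit 1806 genes (11.7%) passed, of which 669 (4.35%) were lower at 28 months.

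**Figure D2:**
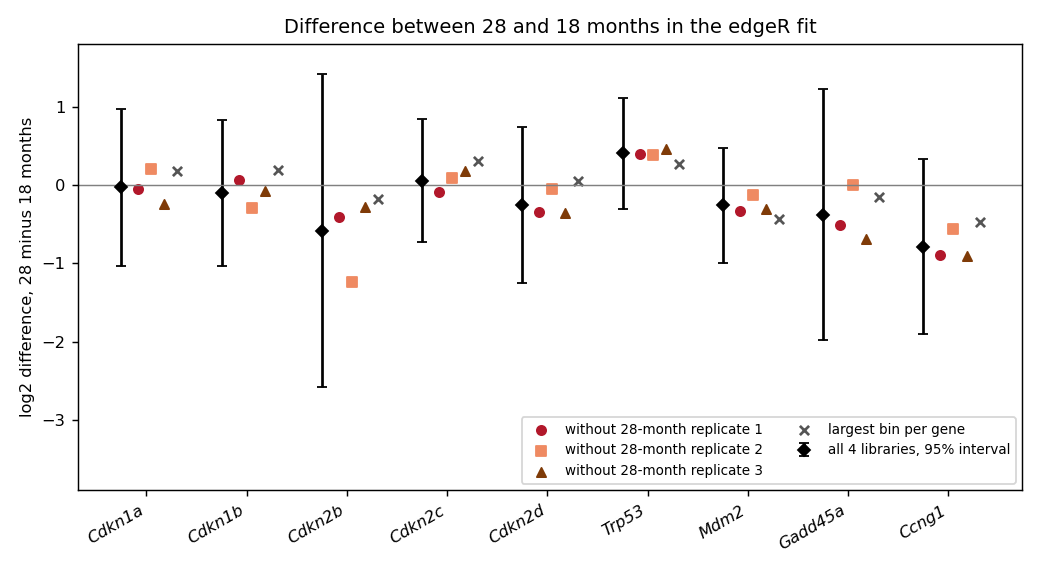
Log2 difference between 28 and 18 months for the 9 tested genes, with bars for the 95% interval of the edgeR fit on all 4 libraries and further symbols for the fits named in the key; negative values are lower at 28 months. Every bar crosses 0, from Ccng1 at -0.79 to Trp53 at 0.40.

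Levels of different genes were compared per kilobase of exon, which was possible for the 6 genes whose bins could be matched to the annotation. The length was that of all annotated bins, also those nearly without counts. Bin 4 of Cdkn2c, for instance, makes up 1580 of 2686 bases and held 3.23, 1.96 and 3.98% of its counts at 28 months. Fragments that cross bins count in each, so the levels are approximate. In CPM per kilobase, Ccng1 stood highest at 304, 185 and 307 in the 28-month libraries and 458 at 18 months. Cdkn2c followed at 18.5, 15.4 and 12.9 against 14.97, and Mdm2 at 13.001, 9.94 and 12.5 against 14.2. Cdkn2c was above Mdm2 in all 4 libraries, although their ranges at 28 months overlapped. Trp53 came next at 2.98, 3.09 and 2.72 against 2.21 CPM per kilobase, then Cdkn2b at 0.582, 1.37 and 0.417 against 1.19. Cdkn2a was last at 0.0639, 0.0175 and 0.212 against 0. Apart from Cdkn2c and Mdm2, the ranges of neighbours in this order did not overlap.

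The close relatives of these genes gave the same picture of no called change. Of 7 relatives, 6 were tested, 4 were higher and 2 lower at 28 months in estimate, the median log2 difference was 0.07, and 0 passed the edgeR test. Cdkn1c (p57, the remaining CIP/KIP inhibitor) measured 7.10, 6.96 and 9.47 CPM in the older libraries against 13.2 CPM in the younger. It was the only 1 of the 6 tested relatives with the younger library outside the range, at a log2 difference of -0.75 ± 0.31 (edgeR adjusted p = 0.859). Mdm4, the partner of Mdm2 in restraining p53, measured 27.8, 45.5 and 30.8 CPM against 31.6 CPM. Gadd45b had 2.78, 2.73 and 6.16 against 3.10 CPM, and Gadd45g 6.15, 17.8 and 11.6 against 10.5 CPM. Ccng2, cyclin G2, had a log2 difference of 0.01 ± 0.29. The p53 relative Trp63 had -0.09, and Trp73 was below the filter with 7, 5, 9 and 2 counts, the younger library being the lowest.

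Other p53 target genes had estimates in both directions. Of 28 listed targets 27 were tested, 14 were higher and 13 lower in estimate, the median log2 difference was 0.07, 2 had an unadjusted p under 0.05 and 0 passed the edgeR test after adjustment. The younger library lay outside the older range in 51.9% of them, close to the 51.8% of all genes. Rps27l, a ribosomal protein paralogue induced by p53, measured 179, 148 and 128 CPM at 28 months, against 55.6 CPM in the 18-month library. Its log2 difference was 1.45 ± 0.35, with no overlap between the ages. Polk, a DNA polymerase that copies damaged templates, was lower in estimate, at 23.2, 18.6 and 19.3 against 36.9 CPM and a log2 difference of -0.86 ± 0.26. Ddb2, which recognises ultraviolet damage, had 4.52, 8.37 and 5.18 against 2.55 CPM. Tigar, which lowers glycolytic flux, had 79.4, 79.2 and 72.5 against 118 CPM. Each of these 4 had an edgeR adjusted p of 0.859.

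The kinases, acetylases and ligases that regulate p53 were represented by 12 tested genes, of which 9 were higher and 3 lower in estimate, with a median log2 difference of 0.28 and 0 called. The 4 with the smallest p were Chek1 (log2 difference 1.18) and Atm (0.54), kinases of the DNA damage checkpoint, Rchy1 (0.35), a ubiquitin ligase for p53, and Hipk2 (-0.52), a kinase that phosphorylates it. Chek1 rested on only 16, 41 and 30 counts at 28 months and 11 at 18 months. Adjusted p-values in edgeR were 0.859 to 0.872.

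The targets of the inhibitors, meaning the cyclins, kinases, pocket proteins and E2F factors of G1, numbered 16 and all were tested. In estimate 10 were higher and 6 lower, the median was 0.23, 1 had an unadjusted p under 0.05 and 0 were called. Ccnd1, the D cyclin whose kinases the INK4 proteins inhibit, measured 4.60, 6.50 and 3.31 CPM in the 3 libraries of 28 months, next to 13.1 CPM at 18 months, a log2 difference of -1.45 ± 0.42 (edgeR adjusted p = 0.859). All 3 older libraries were below the younger. The other 3 with the smallest p were Cdk6 at 1.63, Ccne1 at 1.37 and E2f3 at -0.51. Among 15 genes that control the inhibitors, such as Polycomb and FOXO factors, 8 were higher and 7 lower, with a median of 0.08 and 0 called. Its named members were Cbx8 (1.23), Skp2 (0.76), Ezh2 (0.45) and Foxo1 (0.32). Skp2 rested on 56, 97 and 35 counts at 28 months and 31 at 18 months.

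Genes of DNA replication and mitosis were mostly higher at 28 months in estimate, 15 of the 16 tested, with a median log2 difference of 0.92, yet 0 had an unadjusted p under 0.05 and 0 were called by edgeR. The younger library lay below every older one in 5 of the 16 and outside the older range in 37.5%, against 51.8% of all genes. Mcm5, of the replicative helicase, measured 2.44, 1.85 and 3.10 against 1.06 CPM. Ccnb2, a mitotic cyclin, had 0.120, 0.277 and 1.42 against 0.061 CPM, with an estimate of 3.26 ± 1.85 and the highest value in replicate 3. Summed over the list, replicate 3 was also the highest, at 82.3 CPM against 59.3 and 60.6 CPM in replicates 1 and 2 and 57.2 CPM at 18 months. Mcm3 had 0.65 and the mitotic kinase Aurka, the 1 lower gene, -0.57. The macrophage markers were 11 of 11 higher at 28 months in estimate, with a median of 1.30. The red cell markers were 6 of 6 higher with a median of 2.97, and summed to 3798 CPM in replicate 3 against 378 and 145 CPM in replicates 1 and 2 and 183 CPM at 18 months. The part of either in these values was not tested.

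Use of exons was then compared, since splicing was the purpose of the sequencing. edgeR's test of exon usage (Simes p per gene) called 389 of 11000 genes (3.54%) at an adjusted p under 0.05, and none of the 8 members it could test (Cdkn2a and Cdkn2b had too few counts). By single bin it called 525 of 143485 (0.366%), and none in a member. Other fits did call members: the gene F test called Cdkn1a (adjusted p = 0.0428) and Mdm2 (8.54e-05) where it called 30.7% of all genes, and limma's test called Mdm2 (0.0289) where it called 16.0%. Without replicate 2, Cdkn1a (0.00539), Cdkn2d (0.033), Mdm2 (0.0114) and Gadd45a (0.0409) were called in edgeR, where 30% of all genes were. Over all alternatives the adjusted p ranged from 0.00539 to 1.00 for Cdkn1a, 8.54e-05 to 1.00 for Mdm2, 0.033 to 1.00 for Cdkn2d and 0.0409 to 1.00 for Gadd45a.

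The shift of counts to 3′ ends in the younger library ran through the members. The last exonic block of Mdm2 held 53.1, 50.6 and 53.9% of its counts at 28 months and 71.3% at 18 months. For Ccng1 the share was 60.2, 59.3 and 61.6% against 71.0%, and for Cdkn2c 61.4, 59.3 and 58.1% against 67.7%. Trp53 had 19.2, 18.6 and 15.7% against 27.3%. In all 4 genes the younger library was above every older one, as in 84.9% of the 5796 placed genes that averaged 100 counts or more. The gap of 18.8 percentage points in Mdm2 was larger than in 86.6% of those genes, whereas the gaps of 10.6, 8.09 and 9.43 points in Ccng1, Cdkn2c and Trp53 lay near the median gap of 9.40. These gaps also set the counts on each side, because CPM use the size of the whole library. For Ccng1 the bins upstream gave 426, 265 and 414 CPM against 467 CPM and the last block 643, 385 and 664 against 1142 CPM, so the younger library was highest in both. Trp53 had 9.75, 10.2 and 9.28 against 6.51 CPM upstream and 2.32, 2.33 and 1.72 against 2.44 CPM in the last block. Cdkn2c had 19.1, 16.8 and 14.5 against 12.99 CPM upstream and 30.4, 24.5 and 20.1 against 27.2 CPM in the last block. Fits that rescale the libraries to 1 side at a time allow for the common shift. The log2 difference of Ccng1 was then -0.74 upstream and -0.58 in the last block, and that of Trp53 was 0.18 and 0.24, so each kept its direction on both sides. Cdkn2c had -0.031 upstream and 0.32 in the last block. In edgeR none of these passed the threshold, and the differences between the sides were not tested.

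**Figure D3:**
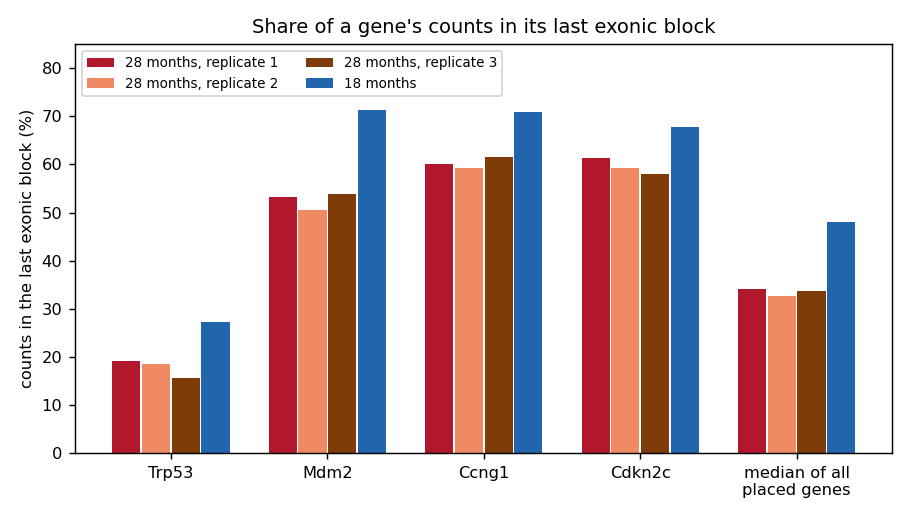
Share of a gene's counts that lay in its last exonic block, in percent, for the 4 members with placed bins and enough counts and as the median over all placed genes; each bar is 1 library. The 18-month bar is the highest in every set, at 71.3% for Mdm2 and 48.0% for the median gene.

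Single bins of Cdkn1a followed the same order along the gene, although its bins could not be placed on the annotation. Bin 2 held 66, 34 and 59 counts at 28 months and 5 at 18 months, or 4.28, 2.24 and 3.40% of the gene against 0.334% (exact 95% Clopper-Pearson interval 0.109 to 0.779%). Bin 4 held 11.7, 9.55 and 11.6% against 4.35%. Bin 7, the last in the gene's own direction, held 62.0, 61.8 and 61.2% against 71.4%. Bin 2 and bin 4 had an unadjusted p under 0.05, as did 5.24% of all bins tested, and the edgeR adjusted p of bin 2 was 0.287. The first bin held 0, 1, 0 and 0 counts. Some transcripts of Cdkn1a share stretches of 135 to 262 bases at 95% identity or more with 35 other genes, so part of its counts may be uncertain. The longest match, of 262 bases, is with AC167363.2, a transcript annotated on the opposite strand of the Cdkn1a locus. AC167363.2 is not among the gene units counted here.

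In Trp53 the smallest p fell on a short exon. Bin 5, the 22 bases of exon 3 at chr11:69587257-69587278, is present in 4 of the 4 protein-coding transcripts in GENCODE M21. It is printed in capitals between the ends of its neighbouring exons, because so short an exon can be counted only from reads that cross its borders.
Trp53-201: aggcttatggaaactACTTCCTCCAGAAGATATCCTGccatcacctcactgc
It held 23 and 33 counts in replicates 1 and 2 of 28 months and 0 in both replicate 3 and the 18-month library. As a share of the gene this was 2.85 and 2.71% against 0 in the others, with an upper 95% bound of 0.631% at 18 months. The bin on its 5′ side held 29, 60, 12 and 10 counts and the bin on its 3′ side 71, 79, 42 and 25, so the neighbours were covered where the short exon was not. The edgeR adjusted p of bin 5 was 0.201; the split does not follow age, since replicate 3 stood with the younger library. The first bins of Trp53, bins 1 and 2, each held 2, 2, 3 and 2 counts.

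Trp53 also has an alternative segment of 96 bases near its 3′ end (bin 20, chr11:69591254-69591349). It held 7, 20 and 2 counts at 28 months and 12 at 18 months, or 0.868, 1.64 and 0.301% against 2.06% (interval 1.07 to 3.57%). The younger library was highest, but the share in replicate 2 lay inside its interval, and the bin's edgeR adjusted p was 1.00. Bin 20 lies in the last exonic block, where the younger library also had the larger share of the gene's counts. That block as a whole held 155, 227 and 104 counts at 28 months against 159 at 18 months. Use of the bin within the block was not tested. Bins of Trp53 that lie in no exon of a protein-coding transcript, mostly introns kept in noncoding transcripts, held 2, 37 and 3 counts against 17. That was 0.248, 3.04 and 0.452% of the gene against 2.92%, so replicate 2 and the younger library stood together. The same 2 libraries were higher over all genes, at 0.342, 0.652 and 0.343% against 0.613% of counts. In Mdm2 such bins held 0.385, 1.40 and 0.598% against 0.598%, with replicate 2 alone above the rest.

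Mdm2 has 2 promoters, of which the one inside the gene responds to p53. The bins of the outermost exon (bins 27 to 30) held 3, 4 and 3 counts in bin 27 at 28 months and 3 at 18 months, and 1 count or none in the others. Bin 23, further inside the gene, held 52, 56 and 71 counts against 31. It lies in 8 annotated transcripts, among them those that start at the outermost exon, so its counts do not separate the promoters. It also lies upstream of the last block, where the younger library had a smaller share of the gene's counts. The bin with the smallest p was bin 5 (chr10:117691145-117691222), next to the last block, with 7.07, 7.02 and 6.56% of the gene's counts at 28 months against 3.24% (interval 2.76 to 3.79%; edgeR adjusted p = 0.905). Bin 2, inside the last block, held 23.6, 22.7 and 24.2% against 35.9%. Short stretches of 105 to 143 bases in a transcript of Mdm2 match 22 other genes at 95% identity or more.

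**Figure D4:**
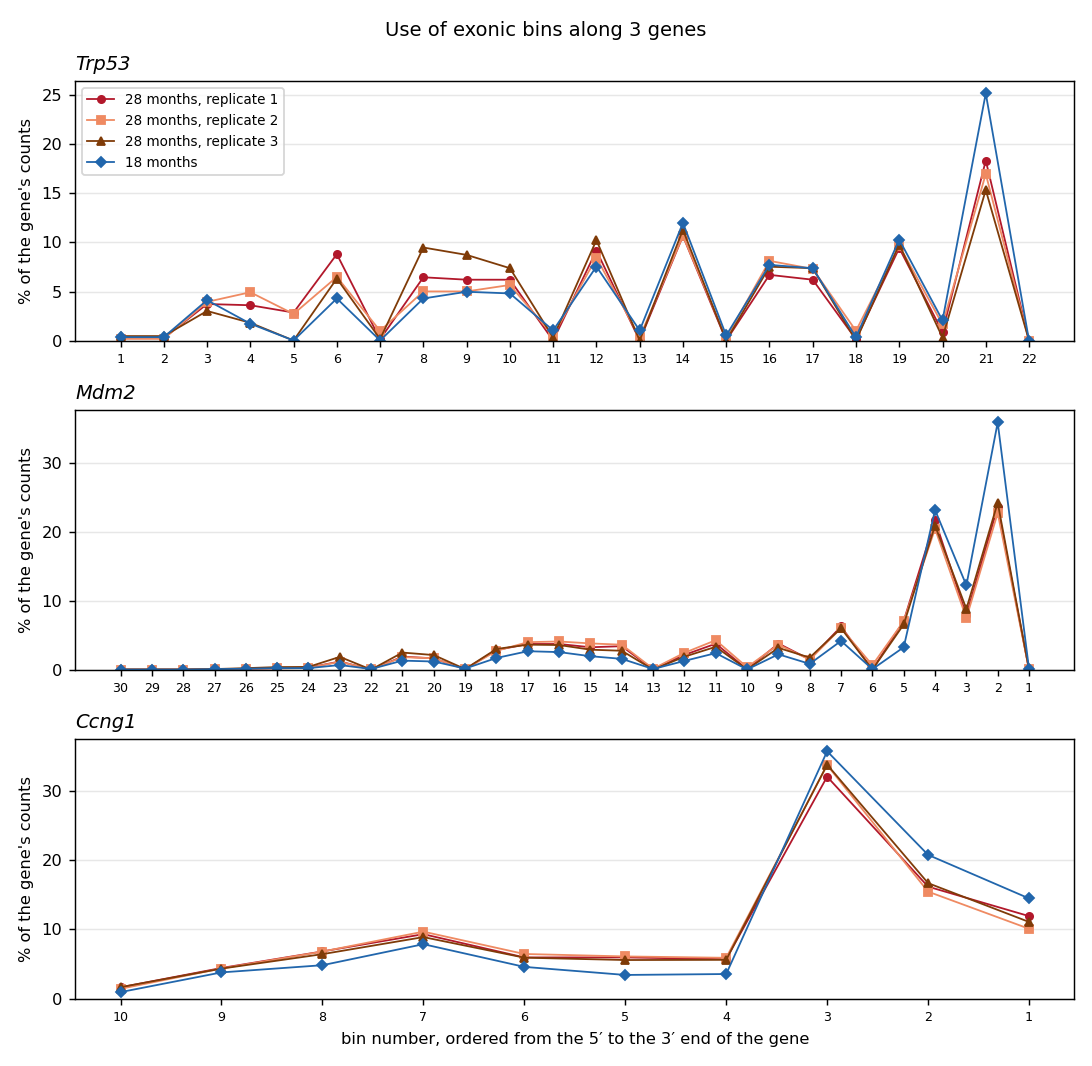
Share of the gene's counts in each exonic bin of Trp53, Mdm2 and Ccng1, in percent, with the bins in order from the 5′ to the 3′ end and 1 line per library. The 18-month line runs highest at the 3′ end, where bin 2 of Mdm2 holds 35.9% against 22.7 to 24.2% in the 28-month libraries, and bin 5 of Trp53 is at 0 in replicate 3 and at 18 months.

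The remaining tested genes had no bin with an unadjusted p under 0.05. In Ccng1 none of 10 bins had an unadjusted p under 0.05; the bin at its 5′ end held 1.64, 1.43 and 1.66% against 0.949% and the bin at its 3′ end 11.9, 10.1 and 11.1% against 14.5%. In Cdkn2d, bin 2 of the 2 bins held 14.8, 12.4 and 14.9% against 6.46%. Cdkn1b and Cdkn2c, with 4 tested bins each, and Gadd45a, with 9, had none with an unadjusted p under 0.05. In Cdkn1b, bin 3 held 12.4, 23.2 and 11.9% against 20.9%, so replicate 2 and the younger library stood together there.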

How the data were processed

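Per the submitters' processing notes, bcl2fastq 1.8.3 and TopHat2 2.0.4 were used with the mouse build GRCm38. The deposited values are raw counts per exonic bin. The counter, its annotation and its strand setting are not given in the sources used here. In each file 5 special entries (3.36 to 5.20% of its counts) were left out. Counts were summed over the 374286 bins into 40137 gene units (949 of them joined genes), so a fragment that crosses bins counts in each; 97.26% of units had a symbol. The exact intervals treat counts as independent, so they may be too narrow where fragments cross bins. CPM are counts scaled to the TMM-adjusted library size. Genes averaging 10 counts or more were fitted with edgeR 4.0.16 (R 4.3.3) in a quasi-likelihood test with Benjamini-Hochberg adjustment over all genes tested; bin use was tested with diffSpliceDGE. The spread comes from the 3 libraries of 28 months, and the lone 18-month library is assumed to vary like them. Alternatives used DESeq2 1.42.0, limma 3.58.1, other scalings, filters and left-out libraries. Bins were placed where a gene had as many bins as in GENCODE M21 (16779 genes, 66.3% of those with several bins). Scripts were tested on simulated data.

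The 10 members and all lists were chosen with earlier results of these data known. The text names all 10, their relatives, the up to 4 tested genes of each list with the smallest p, and the bins with the smallest p, the first bins and bins at 0 in one age; further bins were chosen after their values were seen. Atr, Ep300, Mcm7 and Top2a were not analysed here.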

Additional observations from a re-analysis of the deposited data

How the results depend on the processing

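Across the fits that left out 1 library of 28 months, the genes called ranged from 1 to 1806 and the members called from 0 to 1 (Ccng1, without replicate 2); exon usage called 164 to 3299 genes and 0 to 4 members. DESeq2's Wald test called 31 genes. For exon usage, a minimum mean of 30 counts per bin called 234 genes, limma's test 1765 genes and 1 member, and the gene F test 3375 genes and 2 members. Of 99 alternative log2 differences of members, 90 kept their direction and side of the threshold and 8 changed sign. With the largest bin of each gene in place of the sum, Cdkn1a was 0.18, Cdkn1b 0.19 and Cdkn2d 0.046. With 1 library of 28 months left out, Cdkn1a ranged from -0.25 to 0.20 (without replicate 2), Cdkn1b from -0.29 to 0.060 (without replicate 1) and Cdkn2c from -0.085 (without replicate 1) to 0.18. Over bins upstream of the last exonic block, an alternative chosen after seeing the data, Cdkn2c was -0.031 and Mdm2 0.060. Per kilobase, the 28-month means were 15.6 for Cdkn2c, 2.93 for Trp53, 11.8 for Mdm2 and 266 for Ccng1, since the unit differs. For the sign changes the cause was not tested. No paired analysis was possible because there is 1 library at 18 months. The depth limits Cdkn2a, whose 22 counts allow no test.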
